A study of Mus musculus with 18 samples.

Results

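The mouse insulin genes Ins1 and Ins2 and the gene for islet amyloid polypeptide, Iapp, were followed through islet RNA of mice with extra copies of an IAPP gene. They were taken from the count table by their symbols and are 3 of its 54186 genes. All 3 passed the filter on low counts, which kept 20244 genes. RNA came from pancreatic islets of 18 mice on the FVB background, all 6 weeks old, with 6 mice and 1 library per mouse in each genotype. WT mice carried no transgene, hIAPP mice carried a human IAPP transgene and rIAPP mice a rodent IAPP transgene. Per the labels, both transgenes were expressed in beta cells from the insulin II promoter. The labels name no treatment, and islets were taken as whole preparations, so that all their cell types contributed RNA.

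Insulin is made by beta cells as preproinsulin, which is cut to proinsulin and then to insulin and C-peptide inside secretory granules. Mice have a pair of insulin genes. Ins2 has the ancestral structure with an intron in its coding part, and Ins1 is a retroposed copy of it that is expressed mainly in beta cells. IAPP, also called amylin, is processed by the same granule enzymes and secreted with insulin. Human IAPP can form amyloid fibrils, as found in islets in type 2 diabetes, while rodent IAPP does not.

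On GRCm38, with the annotation of GENCODE M21, Ins1 lies at chr19:52264297-52265476 on the plus strand and has 2 exons. The Ins2-201 transcript lies at chr7:142678659-142679726 on the minus strand and has 3 exons. Iapp lies at chr6:142298423-142303961 on the plus strand, has 3 exons and sits inside Slco1a5, a transporter gene on the other strand with which it shares 0 exon bases. Slco1a5 was measured at 1.02 to 2.76 CPM (counts per M of the scaled library total, where M is 10 to the power 6) in the 18 libraries, against 20873 CPM in the library with the least Iapp.

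The coding sequences of Ins1 and Ins2 bear on how far reads can be told apart, and their ends are shown for that reason. They run from coding base 181 to the stop codon, on the coding strand, read from GENCODE M21 transcripts. Capitals mark bases that differ between the genes or have no partner in the other gene.
Ins1: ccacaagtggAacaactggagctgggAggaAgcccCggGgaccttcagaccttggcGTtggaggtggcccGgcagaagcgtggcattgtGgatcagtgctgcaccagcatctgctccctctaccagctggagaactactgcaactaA
Ins2: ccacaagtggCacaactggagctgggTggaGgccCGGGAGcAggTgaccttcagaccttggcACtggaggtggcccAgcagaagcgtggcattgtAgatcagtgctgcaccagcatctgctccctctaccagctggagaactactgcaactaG

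Over the whole coding sequences, 302 of 327 aligned bases (92.4%) were identical, and Ins2 had 6 bases without a partner. The longest identical run, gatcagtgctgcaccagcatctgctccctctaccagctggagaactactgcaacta, covered bases 271 to 326 of the Ins1 coding sequence and 277 to 332 of that of Ins2. It lies in the part that encodes the insulin A chain. A read inside such a run could come from either gene, and how the authors assigned such reads is not given in the sources used here. Over the whole transcripts the longest identical run was also 56 bases. The ratio of Ins1 to Ins2 may therefore depend on that assignment, to an extent that was not tested. Iapp shared runs of at most 10 bases with Ins1 and 8 bases with Ins2. A rodent IAPP transcript, by contrast, can match the Iapp entry. In the rIAPP libraries the counts of Iapp from its own locus and from the transgene cannot be told apart, so that the level there is that of the entry and not of the endogenous gene alone. Whether reads of the human transgene were counted under Iapp in the hIAPP libraries was not tested.

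Promoter sequences are shown because the levels of the 3 genes moved in different ways and because the insulin II promoter drove the transgenes. Of the 3 genes, 2 matched the RefSeq promoter table (GRCm38.p6), Ins1 and Iapp, and Ins2 did not. The windows are the 250 bases before the RefSeq start, chr19:52264047-52264296 and chr6:142298175-142298424, both on the plus strand. Motifs were searched on both strands, but the TATA box only as written. Capitals mark TAAT, the core of A boxes, which homeodomain factors such as PDX1 bind, and CANNTG, the E box, which factors such as NEUROD1 bind.
Ins1: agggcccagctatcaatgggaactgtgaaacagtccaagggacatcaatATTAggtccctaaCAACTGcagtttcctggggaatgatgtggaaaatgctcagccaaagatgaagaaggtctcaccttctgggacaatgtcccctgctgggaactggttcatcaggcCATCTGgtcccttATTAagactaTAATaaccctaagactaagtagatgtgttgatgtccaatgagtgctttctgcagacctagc
Iapp: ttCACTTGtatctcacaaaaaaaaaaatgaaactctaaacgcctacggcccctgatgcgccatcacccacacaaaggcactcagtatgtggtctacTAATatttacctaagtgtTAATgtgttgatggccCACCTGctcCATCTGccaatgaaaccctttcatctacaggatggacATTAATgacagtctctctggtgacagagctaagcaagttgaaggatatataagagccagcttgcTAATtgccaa

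Both windows held each motif. In Ins1, the TAAT core began 201, 71 and 61 bases before the start and CANNTG 188 and 84 bases before it. In Iapp, the TAAT core began 154, 136, 74, 72 and 10 bases before the start, with the matches at 74 and 72 overlapping, and CANNTG 248, 120 and 111 bases before it. The E box form CATCTG, which overlaps CANNTG by definition, occurred once in each window, at 84 bases in Ins1 and 111 bases in Iapp. Among 32851 promoter windows of this length, 54.9% held the TAAT core, 66.2% the E box and 14.4% its CATCTG form. The letters TGCTGAC, a MAF core, occurred in 3.81% of windows. The TATA box TATAAA occurred in 7.59% of windows. The letters TGACG, a CRE core, occurred in 17.8% of windows. None of these MAF, TATA or CRE letters was in the Ins1 or the Iapp window. Other forms of them were not searched, and the Iapp window holds the letters TATATAA. Whether the annotated starts are those used in islets was not tested. If transcription begins elsewhere, these windows miss part of the promoter and the distances do not hold. Letters absent from a window therefore do not show that the gene lacks them. Matches are letters in a window, not measured binding.

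Library totals were 109.6 to 166.2 M estimated counts. Over the series the single most abundant gene was Rn7s1, which encodes the signal recognition particle RNA, at 22.8% of counts, and Ins2, Iapp and Ins1 followed at 4.33%, 3.30% and 3.22%. The smallest count of any of the 3 genes in a library was 1953360, for which counting error is 0.0715%, so the spread between mice and not depth set the precision. Islet endocrine markers made up 2.83 to 4.85% of counts and none was at 0 in any library. Markers of acinar cells, which make digestive enzymes, made up 0.109 to 0.466% in WT, 0.294 to 2.29% in hIAPP and 0.547 to 2.24% in rIAPP. None of those 21 markers was at 0 in any library. Libraries hIAPP 5 and hIAPP 6 stood apart from the other hIAPP libraries, with acinar shares of 1.41% and 2.29% and the lowest insulin levels of that genotype, and results for hIAPP are also given without them. Their low insulin levels were part of that choice, so leaving them out raises the hIAPP insulin means by construction. The insulin results without them are descriptions and no independent check. In bulk islet RNA, fewer beta cells and less RNA per beta cell cannot be told apart.

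Relative to WT, Ins1 and Ins2 fell in rIAPP by 1.21 and 0.87 on the log2 scale. In hIAPP, Ins2 fell by 0.45, and the Ins1 value of -0.38 did not pass the test. Iapp fell in hIAPP by 0.42, and in rIAPP its value of 0.19 against WT did not pass the test.

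Many genes differed between the genotypes. Of 20244 genes tested, 15.8% were called for hIAPP against WT (8.31% higher and 7.53% lower), 26.8% for rIAPP against WT (14.1% higher and 12.6% lower) and 27.6% for hIAPP against rIAPP (13.5% higher and 14.1% lower). Of the 3 genes, 2 were called in each comparison with WT, and 3 between the transgenic genotypes. Genes whose libraries did not overlap between the groups made up 3.74% (higher) and 2.89% (lower) for hIAPP against WT, where Ins2 was among the lower ones. They made up 8.13% and 6.75% for rIAPP against WT, with Ins1 and Ins2 among the lower ones, and 6.52% and 6.85% for hIAPP against rIAPP, with Iapp among the lower ones. The comparisons share libraries in pairs, so their values are not independent of each other.

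Ins1 CPM in WT had a lowest value of 41266, a median of 43200 and a highest value of 48119 (mean 43537 ± 2415, SD, n = 6). The hIAPP libraries ran from 16973 through a median of 37979 to 42280 (33551 ± 9930, SD, n = 6). The rIAPP libraries ran from 14047 through 17430 to 25354 (18870 ± 4138, SD, n = 6). All rIAPP libraries lay below all WT libraries, while 5 of 6 hIAPP libraries did. The 4 other hIAPP libraries lay between 37936 and 42280, and hIAPP 5 and hIAPP 6 had 16973 and 25897 CPM.

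For rIAPP against WT, the Ins1 log2 fold change was -1.21 ± 0.18 (SE, 95% interval -1.58 to -0.83, edgeR adjusted p = 2.93e-05), a 2.31-fold lower level. For hIAPP against WT it was -0.38 ± 0.18 (95% interval -0.74 to -0.01, edgeR adjusted p = 0.164) and -0.13 once hIAPP 5 and hIAPP 6 were left out (edgeR adjusted p = 0.590). Ins1 was higher in hIAPP than in rIAPP by 0.83 ± 0.18 (95% interval 0.46 to 1.20, edgeR adjusted p = 0.00133). In that comparison 5 of 6 hIAPP libraries lay above every rIAPP library, and hIAPP 5 fell within the rIAPP range. Genotype order for Ins1 was thus WT, hIAPP and rIAPP. The difference of hIAPP from WT did not pass after adjustment over all genes, though its unadjusted 95% interval lay just below 0.

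Ins2 CPM in WT ran from 53350 through a median of 55249 to 64274 (56667 ± 3981, SD, n = 6). In hIAPP it ran from 24987 through 46548 to 50247 (41517 ± 10330, SD, n = 6), and in rIAPP from 25613 through 30728 to 36269 (30943 ± 3692, SD, n = 6). Every hIAPP and every rIAPP library lay below every WT library. Between the transgenic genotypes the ranges overlapped, since hIAPP 5 lay below all rIAPP libraries and hIAPP 6, at 32309, inside their range.

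For rIAPP against WT, the Ins2 log2 fold change was -0.87 ± 0.14 (95% interval -1.16 to -0.58, edgeR adjusted p = 6.77e-05), a 1.83-fold lower level. For hIAPP against WT it was -0.45 ± 0.14 (95% interval -0.74 to -0.16, edgeR adjusted p = 0.0320). Without hIAPP 5 and hIAPP 6 the latter was -0.23 and no longer passed (edgeR adjusted p = 0.0995). Leaving out WT 1, WT 2, WT 6 or hIAPP 6 singly also ended the call, with values of -0.46, -0.44, -0.41 and -0.39. Ins2 was higher in hIAPP than in rIAPP by 0.42 ± 0.14 (95% interval 0.14 to 0.71, edgeR adjusted p = 0.0262), and by 0.63 with hIAPP 5 and hIAPP 6 left out (edgeR adjusted p = 1.66e-05). That call ended when hIAPP 1, 2, 3 or 4 or rIAPP 1, 2 or 5 was left out, with values of 0.36 to 0.41.

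Iapp CPM in WT ran from 25586 through a median of 33813 to 40073 (34200 ± 5458, SD, n = 6). In hIAPP it ran from 20873 through 24433 to 30701 (25568 ± 3782, SD, n = 6), and in rIAPP from 32825 through 39107 to 43826 (39138 ± 3727, SD, n = 6). All hIAPP libraries lay below all rIAPP libraries. The WT libraries overlapped both: 4 of 6 hIAPP libraries lay below every WT library, and 2 of 6 rIAPP libraries above every WT library. Unlike for insulin, hIAPP 5 and hIAPP 6 lay inside the range of the other hIAPP libraries.

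For hIAPP against WT, the Iapp log2 fold change was -0.42 ± 0.11 (95% interval -0.66 to -0.18, edgeR adjusted p = 0.0156), and without hIAPP 5 and hIAPP 6 it was -0.36 (edgeR adjusted p = 0.0837). For rIAPP against WT it was 0.19 ± 0.11 (95% interval -0.04 to 0.43, edgeR adjusted p = 0.234). The direct difference, hIAPP against rIAPP, was -0.61 ± 0.11 (95% interval -0.85 to -0.38, edgeR adjusted p = 0.000352), a 1.53-fold lower level in hIAPP. For Iapp the order was rIAPP, WT and hIAPP, and the difference of rIAPP from WT did not pass the edgeR test.

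**Figure D1:**
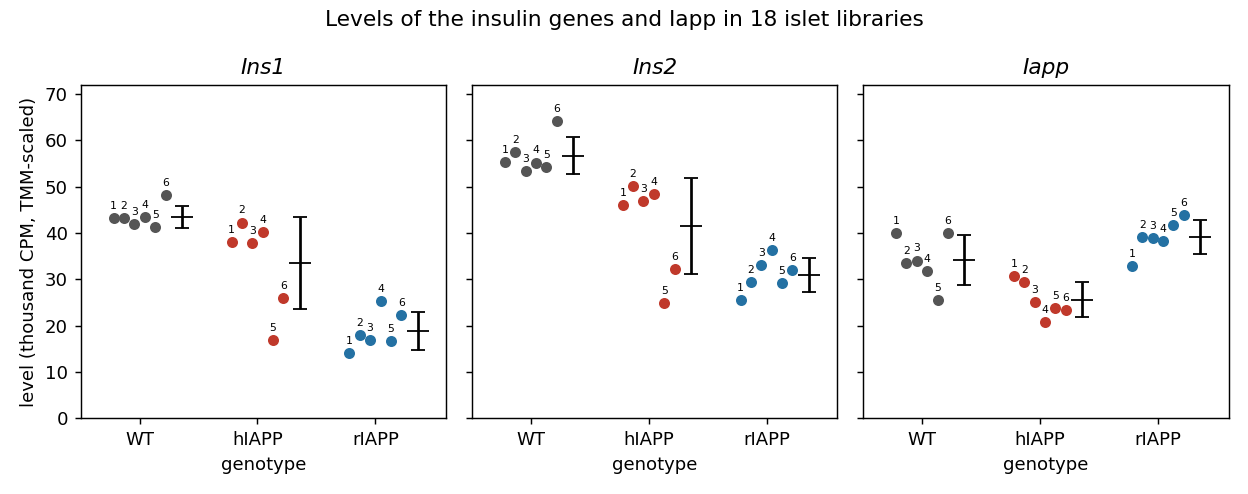
Levels of Ins1, Ins2 and Iapp (vertical axis, CPM scaled as its label states, from 0) by genotype, with 1 point per library numbered within its genotype and bars for the mean and SD (n = 6). For Ins2 all WT points lie above all other points, while for Iapp the hIAPP points lie below all rIAPP points.

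Scaling by library totals alone, in place of TMM factors, changed 2 calls. With it the median log2 fold change of all genes moved from -0.01 to 0.11 for hIAPP against WT and from -0.01 to 0.10 for rIAPP against WT. The share of called genes that were higher went from 52.5% to 86.7% and from 52.8% to 76.4%. On that scale Iapp passed in rIAPP against WT at 0.32 (edgeR adjusted p = 0.0161), which is 0.21 above the shifted median. Ins2 in hIAPP against WT was then -0.34 (edgeR adjusted p = 0.0548), which is -0.45 relative to it.

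Acinar markers differed from WT in both transgenic genotypes. Of the 21 acinar markers, 19 were higher in hIAPP than in WT and 21 in rIAPP than in WT, while 1 was lower and none higher in hIAPP against rIAPP (also by DESeq2 and at an unadjusted p under 0.05). Without hIAPP 5 and hIAPP 6, 2 of 21 were higher in hIAPP than in WT, with a median log2 fold change of 1.22 in place of 1.87. Over all genes, those called higher went from 1683 of 20244 to 1039 of 20600. With the acinar score of a library, the mean log2 CPM of those markers, as a covariate, Ins1 in rIAPP against WT was -0.91 (edgeR adjusted p = 0.0414) and Ins2 was -0.57 (edgeR adjusted p = 0.0932). For hIAPP against WT with that covariate, Ins2 was -0.23 (edgeR adjusted p = 0.546) and Iapp -0.28 (edgeR adjusted p = 0.346). For hIAPP against rIAPP it left Ins1 at 0.74 (edgeR adjusted p = 0.00505) and Iapp at -0.67 (edgeR adjusted p = 0.000220), both still called, and Ins2 at 0.34 (edgeR adjusted p = 0.0766). Acinar shares did not overlap between WT (0.109 to 0.466%) and rIAPP (0.547 to 2.24%). In that comparison acinar RNA and genotype therefore cannot be told apart by this covariate. The part of acinar RNA in the differences was not tested.

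Markers of other cells moved as well. All 5 macrophage markers were higher in hIAPP than in WT and 3 of 5 were lower in rIAPP than in WT, with summed shares of 0.00669 to 0.00799% in WT, 0.0119 to 0.0190% in hIAPP and 0.00380 to 0.00565% in rIAPP. Mesenchymal markers were higher in both transgenic genotypes, 4 of 5 in each, and made up 0.0160 to 0.0263% in WT, 0.0238 to 0.0522% in hIAPP and 0.0431 to 0.0638% in rIAPP. Endothelial markers were higher in rIAPP than in WT (4 of 4) and 1 was lower in hIAPP, and they made up 0.0350 to 0.0626% over all libraries. Ductal markers made up 0.0209 to 0.0328%, with 4 of 5 lower in hIAPP and 2 of 5 lower in rIAPP than in WT. None of these markers was at 0 in any library, and their part in the insulin and Iapp results was not tested.

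The ratio of Ins1 to Ins2 needs no scaling of libraries. It was 0.769 ± 0.0179 in WT (SD, n = 6, range 0.749 to 0.789, median 0.770), 0.797 ± 0.0597 in hIAPP (range 0.679 to 0.841, median 0.816) and 0.606 ± 0.0778 in rIAPP (range 0.508 to 0.699, median 0.593). Ins2 thus supplied 56.5%, 55.7% and 62.4% of insulin counts. WT libraries hardly varied, and every rIAPP library lay below every WT library. The log2 ratio was lower in rIAPP than in WT by a difference of -0.35 (exact two-sided permutation p = 0.00216, adjusted over the 27 exact tests 0.00584), so Ins1 fell by more than Ins2. No lower exact p than 0.00216 is possible with 6 libraries in each of a pair of genotypes. Against rIAPP the hIAPP value was higher by 0.40 (exact permutation p = 0.00649, adjusted 0.0117).

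In hIAPP, 5 of 6 libraries had a ratio of Ins1 to Ins2 above every WT library, at 0.802 to 0.841, and hIAPP 5 one below every WT library. With all 6, the log2 difference from WT was 0.05 (exact permutation p = 0.355, adjusted 0.417). Without hIAPP 5 it was 0.09 (exact permutation p = 0.00216, adjusted 0.00487), and without hIAPP 5 and hIAPP 6 it was 0.10 (exact permutation p = 0.00476, adjusted 0.00989). Library hIAPP 5 held the only hIAPP ratio below WT, so leaving it out sets the groups apart by construction. Each of those exact p values is the lowest possible for 5 or 4 against 6 libraries. They are descriptions and no independent check, and a single library decided that comparison.

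Iapp rose relative to both insulin genes in rIAPP. The ratio of Iapp to Ins1 was 0.784 ± 0.104 in WT (SD, n = 6, range 0.620 to 0.928, median 0.795), 0.832 ± 0.308 in hIAPP (0.519 to 1.40, median 0.752) and 2.13 ± 0.352 in rIAPP (1.51 to 2.49, median 2.25). The ratio of Iapp to Ins2 was 0.603 ± 0.0838 in WT (0.471 to 0.725, median 0.603), 0.649 ± 0.180 in hIAPP (0.431 to 0.952, median 0.626) and 1.27 ± 0.138 in rIAPP (1.05 to 1.43, median 1.31). Every rIAPP library lay above all other libraries on both ratios, whereas hIAPP and WT overlapped.

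The log2 ratio of Iapp to Ins1 was higher in rIAPP than in WT by 1.44 and that of Iapp to Ins2 by 1.08 (exact permutation p = 0.00216 and adjusted 0.00584 for each). In hIAPP against rIAPP the differences were -1.41 and -1.01 (exact permutation p = 0.00216 and adjusted 0.00584 for each). In hIAPP against WT they were 0.03 (exact permutation p = 0.911, adjusted 0.911) and 0.07 (exact permutation p = 0.710, adjusted 0.737), and without hIAPP 5 and hIAPP 6 they turned to -0.23 (exact permutation p = 0.157) and -0.13 (exact permutation p = 0.405). Counts of Iapp relative to both insulin genes together were 0.341 ± 0.0462 in WT, 0.364 ± 0.115 in hIAPP and 0.795 ± 0.0958 in rIAPP (SD, n = 6). The rIAPP ratios include any counts from the rodent transgene.

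**Figure D2:**
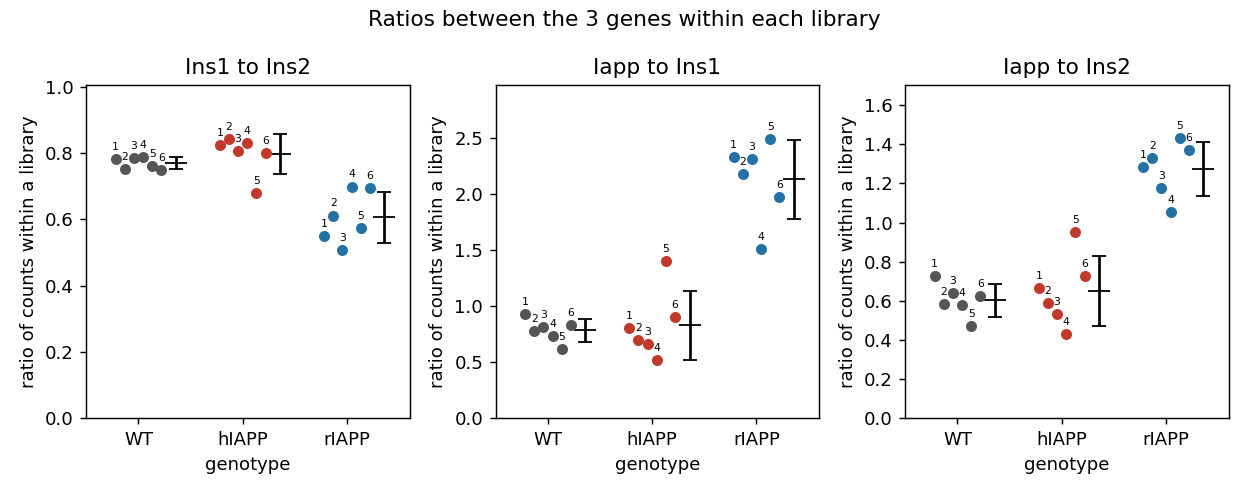
Count ratios within each library (vertical axes, from 0) for Ins1 to Ins2, Iapp to Ins1 and Iapp to Ins2 by genotype, with 1 numbered point per library and bars for the mean and SD (n = 6). The rIAPP points lie below all WT points for Ins1 to Ins2 and above all other points for both Iapp ratios, and hIAPP 5 lies apart from the other hIAPP points in the first panel.

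As shares of all counts, the 3 genes together took 12.7% ± 0.705 in WT (SD, n = 6, 11.7 to 13.9%), 10.2% ± 1.87 in hIAPP (7.38 to 11.9%) and 9.14% ± 0.969 in rIAPP (7.64 to 10.2%). All rIAPP libraries lay below all WT libraries, and the hIAPP and WT ranges overlapped, since hIAPP 2 and hIAPP 4 exceeded the lowest WT library. Ins1 took 4.12% ± 0.173 in WT, 3.41% ± 0.931 in hIAPP and 1.94% ± 0.408 in rIAPP. Ins2 took 5.36% ± 0.274, 4.23% ± 0.948 and 3.18% ± 0.345, and Iapp 3.23% ± 0.442, 2.61% ± 0.250 and 4.03% ± 0.418, in the same order.

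For rIAPP against WT, exact permutation tests of these shares gave p = 0.00216 for Ins1 and for Ins2 (adjusted 0.00584 each) and 0.00649 for Iapp (adjusted 0.0117), which was higher in 5 of 6 rIAPP libraries than in every WT library. For hIAPP against WT they gave exact p = 0.0779 for Ins1 (adjusted 0.111), 0.00649 for Ins2 (adjusted 0.0117) and 0.0173 for Iapp (adjusted 0.0275). Without hIAPP 5 and hIAPP 6 the adjusted values of these exact tests were 0.380, 0.0286 and 0.0744. The Iapp share also missed the threshold when WT 1, 3 or 6 or hIAPP 3, 4 or 6 was left out, with differences of -0.60 to -0.54 percentage points, and the Ins1 share passed when hIAPP 2 or hIAPP 4 was left out, at -0.85 and -0.90 points. For hIAPP against rIAPP they gave exact p = 0.00866 for Ins1 (adjusted 0.0146), 0.0390 for Ins2 (adjusted 0.0584) and 0.00216 for Iapp (adjusted 0.00584). The Ins2 share passed there without hIAPP 5, without hIAPP 6 and without both, at 1.33, 1.22 and 1.62 points. A share uses the library total alone, and the Iapp share in rIAPP passed its test while the TMM-scaled level did not.

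Levels of different genes can be compared only per length. Per base of coding sequence, WT libraries had 170 ± 12.0 CPM for Ins2, 133 ± 7.39 for Ins1 and 121 ± 19.4 for Iapp (SD, n = 6). Ins2 lay above both others in WT without overlap, at 160 to 193, and Ins1 (126 to 147) and Iapp (90.7 to 142) overlapped. In hIAPP the means were 125 ± 31.0 for Ins2, 103 ± 30.4 for Ins1 and 90.7 ± 13.4 for Iapp, and all 3 ranges overlapped. In rIAPP the order was Iapp at 139 ± 13.2, Ins2 at 92.9 ± 11.1 and Ins1 at 57.7 ± 12.7, with Iapp (116 to 155) above all values of the others. Those Iapp counts include any from the rodent transgene, while the lengths used here and per transcript below are those of the Iapp gene.

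The length used matters for the order. Per base of the whole transcript (1062 for Ins1, 478 for Ins2 and 839 for Iapp), WT means were 119 ± 8.33 CPM for Ins2, 41.0 ± 2.27 for Ins1 and 40.8 ± 6.51 for Iapp. In rIAPP they were 64.7 ± 7.72 for Ins2, 46.6 ± 4.44 for Iapp and 17.8 ± 3.90 for Ins1, so that Ins2 and not Iapp came first. The annotated Ins1 transcript is longer than the one RefSeq gives, which ends at base 52265015, and which length fits the islet transcript was not tested.

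Other genes expressed in beta cells were set beside the 3 genes to ask whether those moved by a different amount. The list of 15 holds transporters, channels, enzymes, receptors and transcription factors, among others. How particular each is to beta cells was not tested. Its mean log2 CPM was 8.53 ± 0.0246 in WT, 8.20 ± 0.218 in hIAPP and 7.17 ± 0.283 in rIAPP (SD, n = 6). In rIAPP against WT, 14 of 15 fell and none rose by edgeR, by DESeq2 and at an unadjusted p under 0.05, with a median log2 fold change of -1.33 against -0.01 for all genes tested. With the acinar covariate 12 of 15 fell, against 906 of 20244 over all genes. The fatty acid receptor gene Ffar1 fell by 2.15 ± 0.13 (edgeR adjusted p = 3.20e-10). In hIAPP against WT, 6 fell, 1 rose and 8 did not pass, with a median of -0.31. Without hIAPP 5 and hIAPP 6, 0 fell and 1 rose (median -0.18), and with the acinar covariate 0 fell and 0 rose. Over all genes in hIAPP against WT, 639 of 20600 fell without both libraries and 291 of 20244 with the covariate. The same background applies to the lists that follow. In that comparison Trpm5, a cation channel gene, fell by 0.95 ± 0.27 (edgeR adjusted p = 0.0223) and Ptprn, a granule membrane protein gene, rose by 0.39 ± 0.09 (edgeR adjusted p = 0.00526). In hIAPP against rIAPP, 14 were higher and 0 lower, with a median of 0.97 (DESeq2 and an unadjusted p under 0.05 gave these counts too), among them Abcc8, the sulfonylurea receptor subunit of the potassium channel, at 1.44 ± 0.09 (edgeR adjusted p = 2.20e-10).

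Relative to the mean of that list in the same library, Iapp was higher in rIAPP than in WT by 1.56 on the log2 scale and lower in hIAPP than in rIAPP by a difference of -1.65, with no overlap (exact permutation p = 0.00216 and adjusted 0.00584 for each). Ins2 was higher in rIAPP than in WT by 0.48 (exact permutation p = 0.00649, adjusted 0.0117), since it fell by less than the list. Ins1 differed by 0.12 (exact permutation p = 0.175, adjusted 0.215). For hIAPP against WT the differences were -0.11 for Ins1, -0.16 for Ins2 and -0.09 for Iapp, and none passed (exact permutation p = 0.556, 0.0887 and 0.563, adjusted 0.608, 0.120 and 0.608). The reference decided the insulin values: against the regulators of the insulin genes described next, Ins1 was at -0.85 and Ins2 at -0.49 in rIAPP against WT (exact permutation p = 0.00216 and adjusted 0.00487 for each). With the median of the 15 genes in place of the mean, Ins1 was at -0.23 and Ins2 at 0.13 (exact permutation p = 0.108 and 0.292). Iapp in rIAPP against WT was at 0.59 with the regulators and 1.21 with the median, and in hIAPP against rIAPP at -0.82 and -1.24. Those Iapp differences passed with each reference, at sizes that depended on it (exact permutation p = 0.00216 for each). As with the ratios, the rIAPP values of Iapp include any counts from the rodent transgene.

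Transcription factors that regulate the insulin genes were a list of 16. In rIAPP against WT, 9 fell and 1 rose, with a median log2 fold change of -0.25, and 6 did not pass. Mafa, a factor that binds the insulin promoters in mature beta cells, fell from 305.0 ± 50.9 CPM in WT to 49.7 ± 10.7 (SD, n = 6), a log2 fold change of -2.62 ± 0.19 (edgeR adjusted p = 2.79e-09). Hnf4a, a nuclear receptor gene, rose by 0.36 ± 0.08 (edgeR adjusted p = 0.00147). In hIAPP against WT, 5 fell and none rose by edgeR, with a median of -0.16. DESeq2 gave 7 and 1, an unadjusted p under 0.05 gave 8 and 2, and 3 fell without hIAPP 5 and hIAPP 6. With the acinar covariate 1 fell in hIAPP against WT, and 5 fell and 0 rose in rIAPP against WT. In hIAPP, Mafa was at 125 ± 37.6 CPM, a log2 fold change of -1.29 ± 0.18 (edgeR adjusted p = 8.61e-05). In hIAPP against rIAPP, 6 were higher, among them the homeodomain factor gene Nkx6-1 at 0.73 ± 0.09 (edgeR adjusted p = 2.29e-06), and 2 lower, among them Hnf4a at -0.53 ± 0.08 (edgeR adjusted p = 3.60e-05).

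Of 10 genes for prohormone processing and folding, 5 fell and 1 rose in rIAPP against WT (median -0.19). Pcsk1, a convertase that cuts proinsulin, fell from 794 ± 121 to 213 ± 61.0 CPM (SD, n = 6), a log2 fold change of -1.90 ± 0.18 (edgeR adjusted p = 7.90e-08), and P4hb, a protein disulfide isomerase gene, rose by 0.35 ± 0.05 (edgeR adjusted p = 6.32e-05). In hIAPP against WT, 2 fell and none rose (median -0.15), with the convertase gene Pcsk2 at -0.30 ± 0.09 (edgeR adjusted p = 0.0231). DESeq2 gave 2 and 1, an unadjusted p under 0.05 gave 3 and 1, and none passed in either direction without hIAPP 5 and hIAPP 6 or with the acinar covariate. Calls over all genes fell too, to 1678 without both libraries and 787 with the covariate. In hIAPP against rIAPP, 4 were higher and 1 lower (median 0.17), with Pcsk1 at 1.37 ± 0.17 (edgeR adjusted p = 5.11e-06) and P4hb at -0.21 ± 0.05 (edgeR adjusted p = 0.00615).

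Of 9 granule protein genes, 4 fell and 1 rose in rIAPP against WT (median -0.17), and 1 fell with the acinar covariate. Slc30a8, which encodes the zinc transporter of insulin granules and is in the list of 15 too, fell by 1.23 ± 0.16 (edgeR adjusted p = 6.40e-06), and Resp18 rose by 0.31 ± 0.11 (edgeR adjusted p = 0.0367). In hIAPP against WT, 2 rose and 2 fell (median -0.02), 2 and 1 without hIAPP 5 and hIAPP 6, and 1 and 0 with the acinar covariate, with Vgf, a secreted granule peptide precursor, at 1.34 ± 0.17 (edgeR adjusted p = 2.18e-05) and the granin gene Chga at -0.70 ± 0.13 (edgeR adjusted p = 0.00144). In hIAPP against rIAPP, 4 were higher and 2 lower (median 0.17), with Vgf at 2.27 ± 0.18 (edgeR adjusted p = 5.72e-09) and Resp18 at -0.43 ± 0.11 (edgeR adjusted p = 0.00423).

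The other islet hormones did not pass in any comparison, with edgeR or with DESeq2. At an unadjusted p under 0.05 Sst was lower in hIAPP than in WT, and no other value passed. These were Gcg (glucagon, alpha cells), Sst (somatostatin, delta cells), Ppy (pancreatic polypeptide), Pyy (peptide YY) and Ghrl (ghrelin). Gcg was at 25105 ± 3921 CPM in WT, 21667 ± 2643 in hIAPP and 25743 ± 5218 in rIAPP (SD, n = 6), with log2 fold changes of -0.21 (95% interval -0.49 to 0.07) in hIAPP and 0.04 (-0.24 to 0.31) in rIAPP against WT. Sst was at -0.29 (95% interval -0.54 to -0.04) and -0.20 (-0.45 to 0.04), Ppy at -0.09 and 0.07, Pyy at -0.13 and -0.01 and Ghrl at -0.28 and -0.11, in the same order. In hIAPP against rIAPP the 5 log2 fold changes ran from -0.25 for Gcg to -0.09 for Sst. These values are of levels, and whether the insulin genes moved by another amount than Gcg was not tested. The count ratio of Ins1 to Gcg was 1.77 ± 0.290 in WT, 1.53 ± 0.375 in hIAPP and 0.751 ± 0.175 in rIAPP, and that of Iapp to Gcg was 1.37 ± 0.138, 1.18 ± 0.124 and 1.56 ± 0.254 (SD, n = 6).

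**Figure D3:**
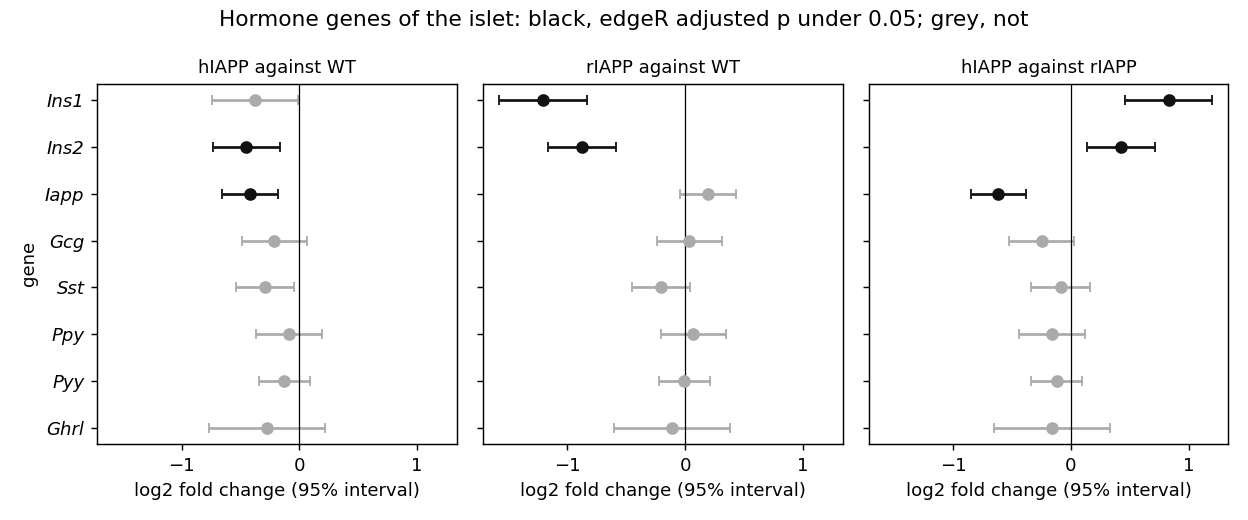
Log2 fold changes (horizontal axis) with 95% intervals from the fit for the 3 genes and the 5 other islet hormones in each comparison. The intervals of Ins1 and Ins2 lie below 0 in rIAPP against WT, and those of Gcg, Ppy, Pyy and Ghrl include 0 in every comparison.

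Genes with the most similar pattern over the 18 libraries were found by the mean absolute difference of log2 CPM, each gene centred on its own mean, among 8820 other genes with a mean of at least 10 CPM. Only genes with a proper name, not numbered gene models, were named. For Ins1, whose own mean absolute deviation was 0.559, the 4 nearest named genes were Sfrp5 (a secreted WNT-binding protein, 0.123), Klhl7 (0.126), Fkbp1b (a ryanodine receptor-binding protein, 0.126) and Dusp10 (a MAP kinase phosphatase, 0.127). Sfrp5 went from 43.3 ± 3.33 CPM in WT to 33.8 ± 10.2 in hIAPP and 18.9 ± 2.32 in rIAPP (SD, n = 6). Ins2 ranked 16th for Ins1, at 0.177, and Iapp ranked 7925th.

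For Ins2 (own deviation 0.401) the nearest were Gjd2, the gap junction protein of beta cells, at 0.0953, Ddx31 (an RNA helicase, 0.103), Mthfd1 (a folate enzyme, 0.109) and Nt5c3 (a nucleotidase, 0.119), with Ins1 ranked 48th. Gjd2 went from 220.0 ± 14.0 CPM in WT to 178 ± 22.2 in hIAPP and 123 ± 12.1 in rIAPP (SD, n = 6). For Iapp (own deviation 0.269) they were Obi1 (0.0985), Ikbip (0.104), Rai2 (0.110) and Btbd1 (0.111), at ranks 1, 2, 4 and 5 since a gene model at rank 3 was skipped, with Ins2 ranked 8244th and Ins1 8611th. Obi1 was at 11.3 ± 1.10 CPM in WT, 8.50 ± 0.549 in hIAPP and 12.5 ± 0.872 in rIAPP (SD, n = 6). The points share their libraries, so these are descriptions without a test. Each insulin gene was near the other on this measure, and the Iapp entry was far from both. In rIAPP that entry includes any counts from the rodent transgene, so its ranks and nearest genes do not describe the endogenous gene alone.

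**Figure D4:**
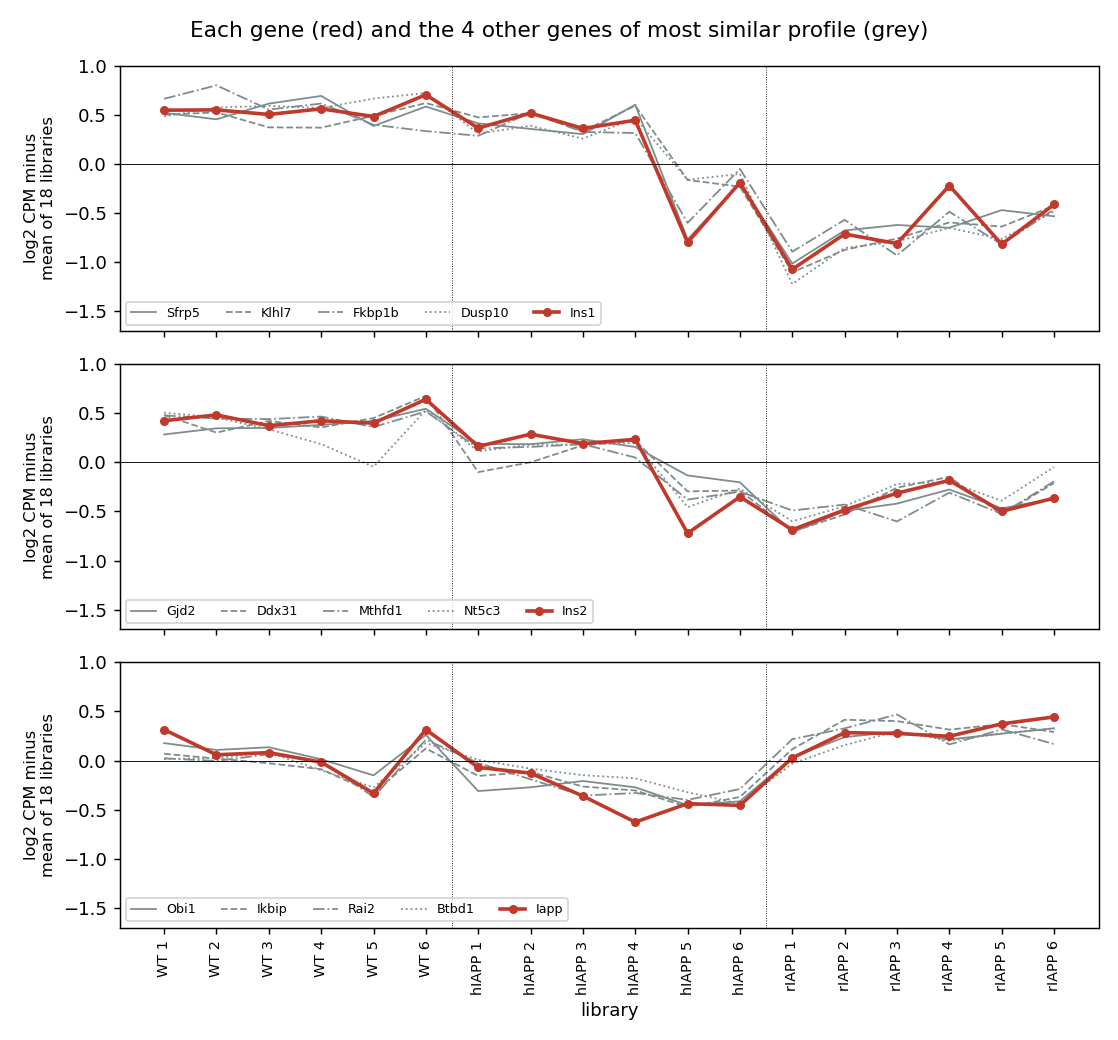
Log2 CPM centred on each gene's own mean (vertical axis) in the 18 libraries, ordered by genotype and number (horizontal axis), for Ins1, Ins2 and Iapp (red) and the 4 nearest genes with a proper name for each (grey). The insulin profiles step down from WT to rIAPP with a dip at hIAPP 5 and hIAPP 6, and the Iapp profile is on average lowest in hIAPP and highest in rIAPP.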

How the data were processed

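Values were estimated counts per gene symbol from islet RNA of 18 mice, as the authors deposited them, with no normalisation. The submitters' processing notes name STAR, HTSeq, GRCm38 and mm10, and no source used here gives the strandedness or the step behind fractional values. All 54 values of the 3 genes were fractional, with no tolerance allowed, and counts were rounded before testing. The mice were grouped by the labelled genotype. edgeR 4.0.16 (R 4.3.3) was run with TMM factors and filterByExpr, and its quasi-likelihood model took in every library. Its p-values were adjusted by Benjamini-Hochberg over 20244 genes, and genes were called at an adjusted p under 0.05. CPM used the TMM-scaled total and log2 CPM a prior count of 2. Ratios, shares and values relative to other beta cell genes were compared by 27 exact two-sided permutation tests, adjusted together. Positions and sequences came from GENCODE M21 and RefSeq. The fit was also run on simulated counts with the same spread for all genes. That spread was below that of Ins1 in both transgenic genotypes, Ins2 in hIAPP and Iapp in WT and hIAPP. The run therefore gives no check of those values. Python 3.11.15 and matplotlib 3.10.9 drew the plots.

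The 3 genes, the gene lists, the comparisons and the alternatives were chosen with earlier results of these data known, and give no independent support to those results. Lists overlap (Pdx1 and Nkx6-1 are regulators and in the list of 15; Slc30a8 and Ptprn are in that list and the granule list). From each list the called gene with the smallest p in each direction and comparison was named, with all 3 genes, the 5 other hormones, the 4 nearest genes by pattern and the most abundant gene. Alternatives were DESeq2 1.42.0, limma-voom (limma 3.58.1), other scaling, no filter, fits of only the genotypes compared, covariates, other denominators and references, and leaving out libraries. Counts within the gene lists under DESeq2, the acinar covariate and without hIAPP 5 and hIAPP 6 were added after the data were seen.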

Additional observations from a re-analysis of the deposited data

Results flagged for a closer look

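Each gene's level, count ratio and share was examined for a library far from the rest of its genotype, in 51 sets of 6 libraries. In 3 of them the gap of the most extreme library to its neighbour passed Dixon's 95% critical value for 6 values, and chance alone is expected to pass about 1 in 20 sets. Ins1 in WT 6 was at 48119 CPM, with the other WT libraries at 41266 to 43568. The count ratio of Ins1 to Ins2 in hIAPP 5 was 0.679, with the other hIAPP libraries at 0.802 to 0.841. Gcg in WT 5 was at 17589 CPM, with the other WT libraries at 25146 to 28642.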

How the results depend on the processing

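Of 29 alternative fits, Ins1 in rIAPP against WT (-1.31 to -0.91) and hIAPP against rIAPP (0.71 to 1.07), and Iapp in hIAPP against rIAPP (-0.68 to -0.56), kept direction and call in all. Ins2 in hIAPP against WT lost its call with library totals alone (-0.34), no filter (-0.45), only the genotypes compared (-0.45), the acinar score (-0.23) and without hIAPP 5 and hIAPP 6 (-0.23). Iapp in hIAPP against WT lost it with no filter (-0.42), the acinar score (-0.28) and without both libraries (-0.36), and Iapp in rIAPP against WT gained one with totals alone (0.32). Ins2 in rIAPP against WT lost it with the acinar score (-0.57). Ins2 in hIAPP against rIAPP lost it with no filter (0.43), only the genotypes compared (0.43), the acinar score (0.34) and mouse number as a covariate (0.33). Genes called fell from 3208 to 787 with the acinar score and 1678 without both libraries for hIAPP against WT, and from 5417 to 2088 with the acinar score for rIAPP against WT. The cause was not tested.

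Without hIAPP 5 and hIAPP 6, the hIAPP against WT differences were 0.10 for the log2 ratio of Ins1 to Ins2 (now passing), -0.23 for Iapp to Ins1 and -0.13 for Iapp to Ins2 (both reversed), -0.59 percentage points for the Iapp share (no longer passing) and 0.0556 for Ins1 relative to the 15 beta cell genes (reversed). The Ins2 share in hIAPP against rIAPP passed at 1.62 points. Library hIAPP 5 had the only hIAPP ratio of Ins1 to Ins2 below WT, so the pass of that ratio without it is a description. The difference in medians for Iapp to Ins1 was -0.0827 (reversed). The Ins1 share in hIAPP against WT passed at -1.01 points of a total without Rn7s1 and -1.19 of one without the 10 most abundant other genes. With the median of the 15 genes, Ins1 was -0.23 in rIAPP against WT and 0.17 in hIAPP against rIAPP (reversed), and Ins2 0.13 and -0.23 (no longer passing). With the regulators they were -0.85 and 0.60 for Ins1 and -0.49 and 0.19 for Ins2, all reversed. The cause was not tested.

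Leaving out 1 library at a time gave, for hIAPP against WT, -0.51 to -0.33 for Ins2, 0.0325 to 0.0943 for the log2 ratio of Ins1 to Ins2, -0.14 to 0.15 for Iapp to Ins1, -0.0454 to 0.18 for Iapp to Ins2, -0.90 to -0.41 points for the Ins1 share, -0.77 to -0.54 points for the Iapp share, -0.17 to 0.00896 for Ins1 and -0.20 to -0.0853 for Ins2 relative to the 15 genes. The Iapp share lost its call without WT 1, 3 or 6 or hIAPP 3, 4 or 6. For hIAPP against rIAPP the range was 0.36 to 0.53 for Ins2 and 0.84 to 1.33 points for its share. No paired analysis was possible because the replicate numbers follow the order of the labels and pair no mice across genotypes. Depth did not limit these 3 genes.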
